A study of Mus musculus with 4 samples.

Results

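Apoptotic cell recognition genes are described here as a list of 10 genes: *Timd4*, *Stab1*, *Mertk*, *Axl*, *Tyro3*, *Gas6*, *Pros1*, *Mfge8*, *Elmo1* and *Dock1*. All 10 were found among the 15298 genes for which expression values were deposited. The rule names them by their role as receptors, bridging molecules and engulfment genes and uses no measured value. The members were, however, chosen with earlier results of these data known. The values came from RNA-seq of peritoneal macrophages in 4 libraries, control and microcurrent stimulation (MCS) at Zeitgeber Time (ZT) 2 and at ZT14. All libraries came from female BALB/c mice aged 6 weeks. MCS mice received bidirectional pulsed current of 300 µA at 400 Hz for 15 min under isoflurane at ZT2, through pads on the abdomen and back. Control mice, labelled as non treatment, underwent the same handling without current. The ZT2 libraries were taken immediately after MCS and the ZT14 libraries 12 h later. The macrophages were sorted as CD11b+ F4/80+ Ly6G- cells, and the sources used here do not give the number of mice in a library.

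Clearance of dying cells by macrophages, or efferocytosis, starts with phosphatidylserine, a membrane lipid that apoptotic cells expose on their surface. Some receptors, such as TIM-4 and stabilin-1, bind this lipid directly, whereas the TAM receptor kinases (TYRO3, AXL and MERTK) bind it through the soluble bridging proteins GAS6 and protein S. MFG-E8 links the lipid to αv integrins. Downstream, ELMO1 and DOCK1 act together as an exchange factor for the small GTPase RAC1, which drives the actin rearrangement that closes the phagocytic cup. TIM-4 is a well-known surface protein of resident large peritoneal macrophages, in which it tethers apoptotic cells.

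With 1 library per condition, no value has a replicate check, and differences between conditions were not tested within a time point. Values are CPM (reads of a gene scaled to a fixed library size), and every value corresponded to a whole number of reads. The libraries held 8365590 to 9953243 reads, and CPM were taken per effective library size of 8620125 to 9779756 reads, so that 1 read equaled 0.102 to 0.116 CPM. Intervals are 95% intervals of counting error only, exact for levels and ratios. In bulk RNA, fewer cells of a type and less RNA per cell cannot be told apart. The sort was reflected in the markers, as *Adgre1* (F4/80) had 1086 to 1900 CPM and *Itgam* (CD11b) 4214 to 5162 CPM, whereas *Ly6g* was not among the listed genes. All 9 peritoneal macrophage markers were listed and none was at 0, with a summed level between 29172 and 33762 CPM. Markers of other cells were present at lower summed levels, with 1066 to 1563 CPM for B cells (8 of 8 markers listed, none at 0) and 1022 to 2415 CPM for mast cells (8 of 8 listed, none at 0).

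Coordinates of the 10 genes are taken from RefSeq on GRCm38.p6, the assembly also called mm10. The direct phosphatidylserine receptors are *Timd4* at chr11:46810786-46844333 and *Stab1* at chr14:31139017-31168651. The TAM receptors are *Mertk* at chr2:128698915-128803162, *Axl* at chr7:25756500-25788924 and *Tyro3* at chr2:119797740-119818104. The bridging genes are *Gas6* at chr8:13465374-13494535, *Pros1* at chr16:62854307-62929346 and *Mfge8* at chr7:79133768-79149060. The engulfment genes are *Elmo1* at chr13:20090507-20608353 and *Dock1* at chr7:134670687-135173647. No transcript of another gene matched a member over 150 bases at 95% identity. The only exons shared with another gene were 112 of 7999 bases of *Stab1*, which overlap *Nt5dc2* on the opposite strand. *Nt5dc2* reached at most 12.2 CPM, and the sources used here do not say whether the counting used the strand.

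Promoters of 4 members are printed because their genes carry the main contrasts of the values below: *Mertk* (higher at ZT2), *Stab1* and *Pros1* (opposite directions at the 2 time points) and *Timd4* (nearly level). Each line holds the 250 bases before a start site of the RefSeq promoter table, 5′ to 3′ on the strand of the gene. This site is the outer end of the gene for *Mertk* and *Pros1*, and lies 13 bases inside it for *Timd4* and 10 for *Stab1*. The windows are chr2:128698665-128698914 (+) for *Mertk*, chr14:31168642-31168891 (-) for *Stab1*, chr16:62854057-62854306 (+) for *Pros1* and chr11:46810549-46810798 (+) for *Timd4*. Capitals mark any of 4 motifs searched on both strands, the E-box CACGTG, the nuclear receptor half-site AGGTCA, the KLF-type box CACCC and the CRE core TGACG. No match in these windows overlapped one of another motif.
Mertk: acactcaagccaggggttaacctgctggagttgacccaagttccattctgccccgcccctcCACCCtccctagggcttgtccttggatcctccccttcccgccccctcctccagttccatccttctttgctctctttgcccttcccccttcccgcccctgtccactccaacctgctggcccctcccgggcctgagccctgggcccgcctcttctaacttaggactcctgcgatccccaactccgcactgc
Stab1: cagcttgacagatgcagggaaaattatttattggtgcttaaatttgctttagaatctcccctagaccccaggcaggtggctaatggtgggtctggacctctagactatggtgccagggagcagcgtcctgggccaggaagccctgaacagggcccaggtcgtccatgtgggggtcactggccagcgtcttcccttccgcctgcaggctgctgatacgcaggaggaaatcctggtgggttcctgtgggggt
Pros1: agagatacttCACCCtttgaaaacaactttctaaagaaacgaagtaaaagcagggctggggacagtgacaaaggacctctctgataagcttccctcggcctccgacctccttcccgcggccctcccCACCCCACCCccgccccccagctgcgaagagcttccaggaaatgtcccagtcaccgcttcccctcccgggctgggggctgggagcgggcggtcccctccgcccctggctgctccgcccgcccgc
Timd4: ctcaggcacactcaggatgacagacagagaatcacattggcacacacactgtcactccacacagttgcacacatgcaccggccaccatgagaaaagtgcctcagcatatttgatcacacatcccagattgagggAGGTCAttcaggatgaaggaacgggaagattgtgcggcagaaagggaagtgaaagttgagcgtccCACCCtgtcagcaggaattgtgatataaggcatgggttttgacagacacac

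In these windows CACCC occurred 1 time for *Mertk*, 189 bases before that start site, 3 times for *Pros1* and 1 time for *Timd4*. AGGTCA occurred 1 time, in *Timd4*, 116 bases before its start site in that table. None of the 4 motifs was found in the window of *Stab1*, which says only that these letters are absent there. Neither CACGTG nor TGACG was found in any window of the 10 members. Among 32851 promoters of the same length, 52.0% held CACCC, 14.0% AGGTCA, 17.8% TGACG and 6.02% CACGTG. No binding was measured in these samples.

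Levels of the members per transcript length covered a wide range. *Timd4* had the highest mean level at 194 CPM per kb, followed by *Pros1* at 120 CPM per kb and *Stab1* at 56.7 CPM per kb. *Mertk*, *Elmo1* and *Dock1* formed a middle group at 34.1, 33.3 and 31.3 CPM per kb. *Mfge8* had 16.2 and *Axl* 9.72 CPM per kb. *Gas6* (0.836 CPM per kb) and *Tyro3* (0.120 CPM per kb) were lowest. *Timd4* stood at percentile 98.2 of 13810 genes with a transcript length, and *Tyro3* at percentile 7.52. The order was the same when the longest coding transcript replaced the median length. Per length, the macrophages held more *Pros1* than *Gas6* RNA among the TAM ligands, and more *Mertk* than *Axl* or *Tyro3* RNA among the TAM receptors, in each of the 4 libraries.

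**Figure D1:**
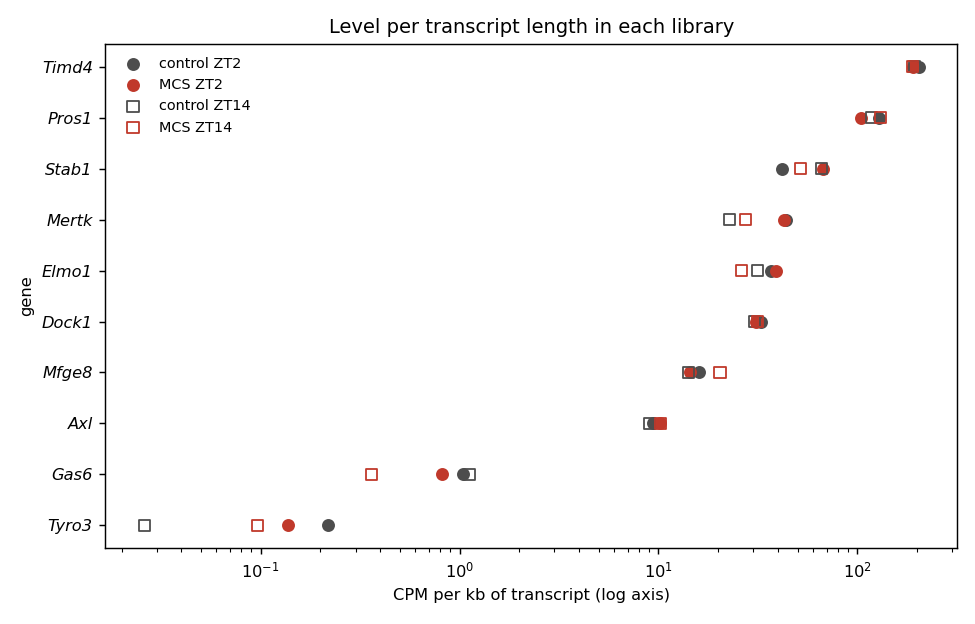
Level of each of the 10 genes in CPM per kb of transcript (horizontal log axis), with 1 symbol per library, filled for ZT2 and open for ZT14, grey for control and red for MCS. *Timd4* and *Pros1* lie highest in every library, and *Gas6* and *Tyro3* lie lowest, at means of 0.836 and 0.120 CPM per kb.

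*Timd4*, the direct phosphatidylserine receptor TIM-4, was among the steadiest members. Its level at ZT2 was 442 CPM without and 415 CPM with MCS, and at ZT14 it was 421 CPM without and 412 CPM with MCS. The highest library was 1.07-fold above the lowest. The log2 ratio of MCS to control was -0.09 at ZT2 (interval -0.16 to -0.03) and -0.03 at ZT14 (interval -0.09 to 0.03). In the order of its levels only the top library, control at ZT2, differed from its neighbour beyond counting error.

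*Stab1*, encoding the scavenger and phosphatidylserine receptor stabilin-1, had the largest ratio of MCS to control at ZT2 among the 8 members of at least 30 CPM. In the ZT2 pair its level was 332 CPM without and 537 CPM with MCS, and at ZT14 it was 528 CPM without and 416 CPM with MCS. Control at ZT2 was thus lowest, and MCS at ZT2 and control at ZT14 were highest and did not differ beyond counting error. The log2 ratio of MCS to control was 0.69 at ZT2 (interval 0.62 to 0.76) and -0.35 at ZT14 (interval -0.41 to -0.29). Among 5282 genes with a mean of at least 30 CPM, 0.322% had a larger absolute ratio at ZT2, and among 5352 such genes 17.2% had a larger one at ZT14. In the same ZT2 pair, summed markers of some other cells were also higher with MCS. For neutrophils (9 of 10 listed, none at 0) they were 146 CPM without and 259 CPM with MCS. For small peritoneal macrophages and monocytes (10 of 10, none at 0) they were 2008 and 2356 CPM. For dendritic cells (8 of 8, none at 0) they were 99.6 and 129 CPM, and for mast cells 1926 and 2415 CPM. At ZT14, where *Stab1* was lower with MCS, these sums were 125 and 128 CPM (*Camp* and *Ngp* at 0 with MCS), 1882 and 1799 CPM, 90.1 and 75.9 CPM, and 1233 and 1022 CPM. Most of the neutrophil sum was *Mmp9*, with 114 and 148 CPM at ZT2 and 91.2 and 109 CPM at ZT14. All listed neutrophil markers were higher with MCS at ZT2. With MCS at ZT14, *Mmp9* and *Retnlg* were higher and the other neutrophil markers lower, such as *Cxcr2* with 12.7 and 7.46 CPM. Other sums were lower with MCS at ZT2, with 1273 and 1222 CPM for B cells and 242 and 204 CPM for platelets. So were those of fibroblasts (88.8 and 86.9 CPM) and of the macrophage markers (30553 and 29172 CPM). *Pi16* made 69.9 and 64.6 CPM of the fibroblast sum. Beside it *Col1a2* and *Pdgfrb* were lower with MCS, and the other listed fibroblast markers were higher. The part of these cells in the *Stab1* difference was not tested. Across time, *Stab1* in control was lower at ZT2 than at ZT14, at -0.67 on the log2 scale (interval -0.74 to -0.60), and higher at ZT2 in MCS, at 0.37 (interval 0.31 to 0.43).

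**Figure D2:**
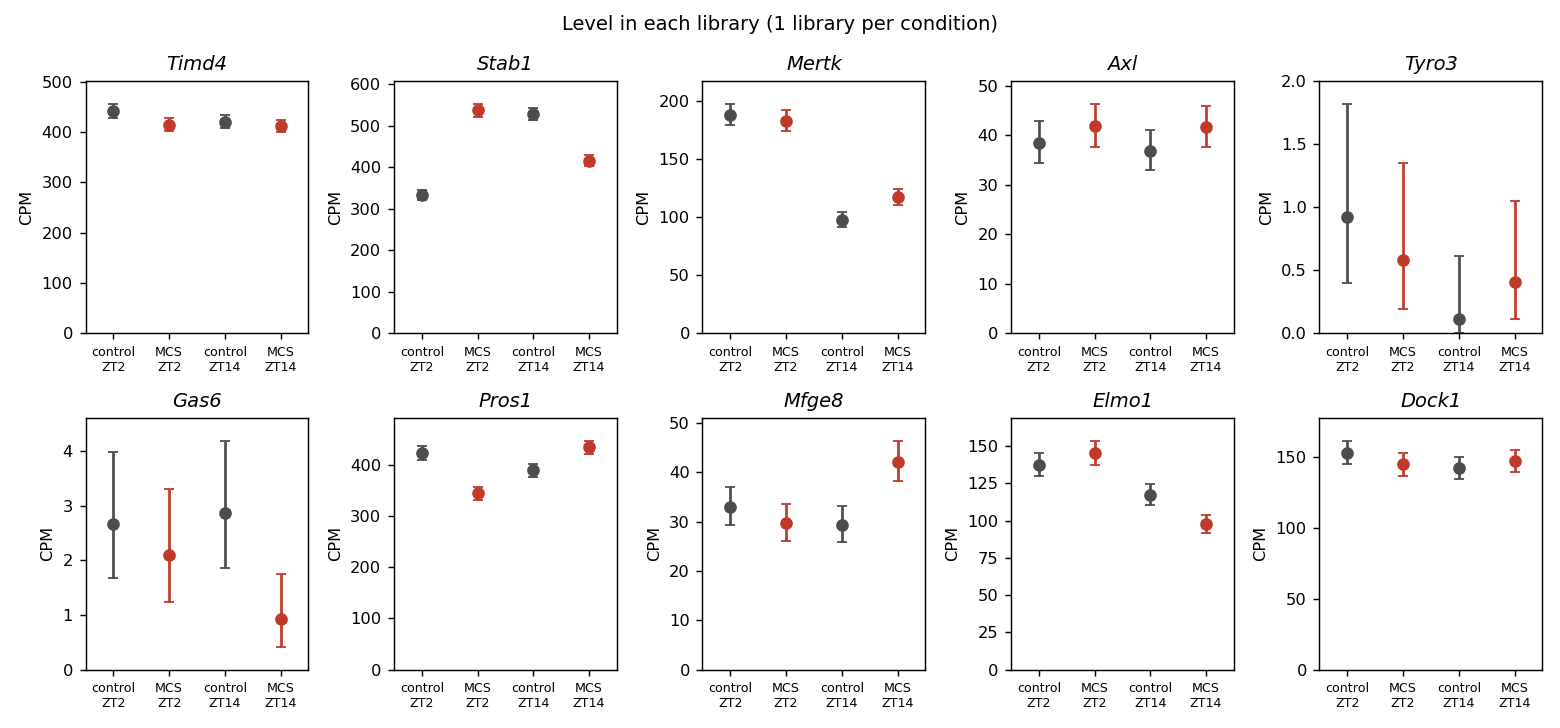
CPM (vertical axis, starting at 0, with its own scale in each panel) of the 10 genes in the 4 libraries, grey for control and red for MCS, with 95% exact Poisson intervals of counting error as bars. *Mertk* lies higher in both ZT2 libraries (188 and 183 CPM) than in both ZT14 libraries (97.7 and 117 CPM), while *Timd4* stays between 412 and 442 CPM.

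*Mertk*, the TAM kinase known as the main efferocytosis kinase of tissue macrophages, differed between the time points. Time of day and time since anaesthesia and handling cannot be told apart in this design. At ZT2 its level was 188 CPM without and 183 CPM with MCS, and at ZT14 it was 97.7 CPM without and 117 CPM with MCS. Both ZT2 libraries were above both ZT14 libraries. The log2 ratio of ZT2 to ZT14 was 0.95 in control (interval 0.83 to 1.07), a 1.93-fold difference, and 0.64 in MCS (interval 0.53 to 0.75). In control, 1.21% of 5309 genes of at least 30 CPM had a larger absolute ratio. For MCS over control, the log2 ratio was -0.04 at ZT2 (interval -0.14 to 0.06) and 0.27 in the ZT14 pair (interval 0.14 to 0.39).

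The 4 libraries allowed 1 count test, in which edgeR fitted time and MCS as additive terms with 1 residual degree of freedom. A shared MCS effect over the time points is assumed, and 9 of the 10 members had enough reads to enter. The p-values of this test measure no spread between replicate libraries. For time, *Mertk* was called, with a log2 fold change of 0.80 and an edgeR adjusted p of 0.00361, and it was the only member called of 9. Over all genes 2.38% were called, which is 295 of 12404. *Elmo1* had an unadjusted p of 0.0205 and an edgeR adjusted p of 0.305 for time, where 10.4% of all genes had an unadjusted p below the threshold of 0.05. For MCS, 0 of 9 members were called by edgeR, against 0.193% of all genes, and 0 had an unadjusted p below that threshold, against 2.45%. The MCS term averages the time points, so opposite ratios, as for *Stab1* (0.69 at ZT2 and -0.35 at ZT14), cancel in part. For such members the term cannot decide whether MCS had an effect at either time. DESeq2 was run on the same 4 libraries and is not an independent check. For time it called *Mertk*, at an adjusted p of 0.0335 from DESeq2, among 0.653% of all genes. For MCS it called 0 of 9 members, among 0.0403% of all genes. Markers of other cells also differed between the time points. The summed mast cell markers were 1926 and 2415 CPM at ZT2 in control and MCS and 1233 and 1022 CPM at ZT14. The summed mesothelial markers (9 of 10 listed, none at 0) were 20.0 and 24.0 CPM at ZT2 and 9.12 and 9.61 CPM at ZT14, and those of T and natural killer cells (8 of 8 listed, none at 0) were 47.4 and 58.5 CPM at ZT2 and 26.5 and 32.1 CPM at ZT14. Those of B cells were 1273 and 1222 CPM at ZT2 and 1563 and 1066 CPM at ZT14, and so lower at ZT2 in control only. The part of these cells in the *Mertk* difference was not tested. The sum of the macrophage markers was 30553 and 29172 CPM at ZT2 and 29397 and 33762 CPM at ZT14.

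The other TAM receptors were lower in level per length than *Mertk*. *Axl* encodes a TAM kinase known for its induction under inflammation. Its level at ZT2 was 38.5 CPM without and 41.8 CPM with MCS, and at ZT14 it was 36.8 CPM without and 41.6 CPM with MCS. It was nominally higher with MCS at both times, with log2 ratios of 0.12 (interval -0.10 to 0.34) and 0.18 (interval -0.03 to 0.39). None of its neighbouring levels differed beyond counting error. *Tyro3*, the TAM kinase best known from the nervous system, had 8 and 5 reads at ZT2 and 1 and 4 reads at ZT14 in control and MCS. These correspond to 0.924, 0.580, 0.110 and 0.409 CPM, below the minimum mean of 1 CPM in every comparison. Between the control libraries, the ratio of ZT2 to ZT14 had an interval from 0.17 to 8.54 on the log2 scale, so that its size was not determined at this depth.

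**Figure D3:**
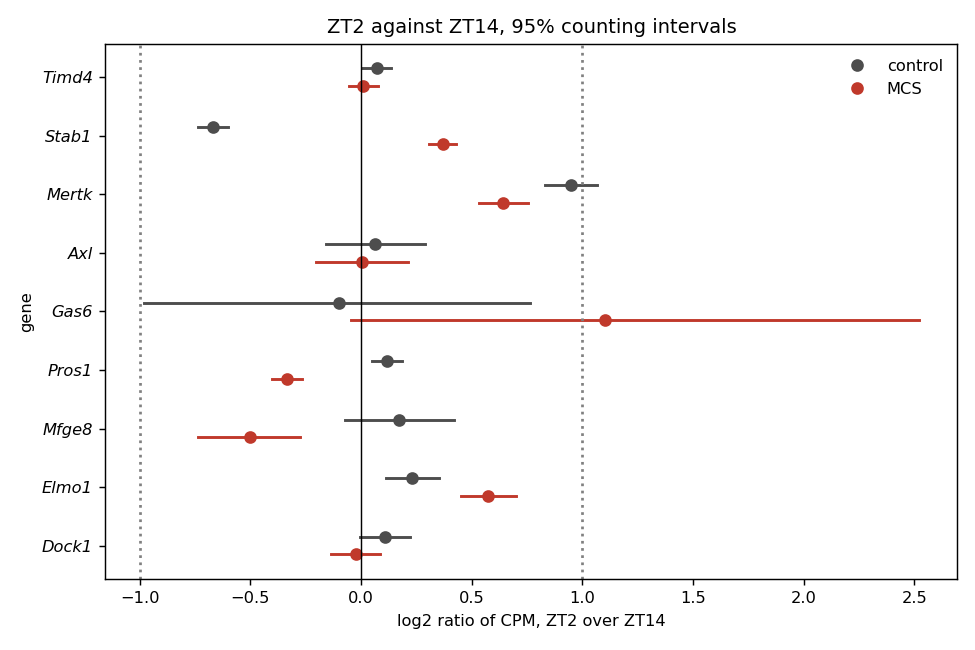
Log2 ratio of CPM at ZT2 over ZT14 (horizontal axis) for the 9 genes above the minimum expression, grey for control and red for MCS, with 95% counting intervals as lines and dotted lines at 1 and -1. The intervals of *Mertk* and *Elmo1* lie above 0 in both, while those of *Stab1* and *Pros1* lie on opposite sides of 0 in control and MCS.

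Among the bridging genes, *Pros1* encodes protein S, a TAM ligand that is also a plasma anticoagulant. In the ZT2 pair its level was 422 CPM without and 344 CPM with MCS, and at ZT14 it was 389 CPM without and 433 CPM with MCS. MCS at ZT2 was lowest, and MCS at ZT14 and control at ZT2 did not differ beyond counting error. MCS over control gave a log2 ratio of -0.29 at ZT2 (interval -0.37 to -0.22) and 0.16 at ZT14 (interval 0.09 to 0.22). Across time, *Pros1* had a log2 ratio of ZT2 to ZT14 of 0.12 in control (interval 0.05 to 0.18) and -0.33 in MCS (interval -0.40 to -0.27). The macrophage markers summed to 30553 CPM without and 29172 CPM with MCS at ZT2, and to 29397 and 33762 CPM at ZT14. Sums of fibroblast and platelet markers had the same directions, and those of small peritoneal macrophages, dendritic cells and mast cells the opposite ones. B cell sums were lower with MCS at both times. The part of these cells in the *Pros1* differences was not tested.

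*Mfge8*, encoding the integrin bridge MFG-E8, was highest in MCS at ZT14. At ZT2 its level was 33.0 CPM without and 29.7 CPM with MCS, and at ZT14 it was 29.3 CPM without and 42.1 CPM with MCS. In the order of levels, the other 3 libraries did not differ from one another beyond counting error between neighbours. At ZT14 MCS over control gave a log2 ratio of 0.52 (interval 0.30 to 0.75), exceeded in absolute size by 6.09% of genes of at least 30 CPM, and at ZT2 -0.15 (interval -0.40 to 0.09). The integrin partners of MFG-E8 were looked up after the values of *Mfge8* had been seen. At ZT14 *Itgb3* had 31.5 CPM without and 48.5 CPM with MCS, which is 0.62 as a log2 ratio (interval 0.41 to 0.84), and *Itgav* had 71.5 and 78.3 CPM, with 0.13 (interval -0.02 to 0.28). *Itgb5*, with 1.32 and 1.53 CPM, had 0.20 (interval -0.98 to 1.44). At ZT2, where *Mfge8* was at -0.15, *Itgb3* had 51.9 CPM without and 63.3 CPM with MCS (log2 interval 0.11 to 0.47). Fibroblast markers (8 of 10 listed, *Pdgfra* at 0 in both) summed to 73.3 CPM without and 112 CPM with MCS at ZT14, of which *Pi16* alone made 68.0 and 101 CPM. In the same pair the macrophage markers summed to 29397 and 33762 CPM. Sums of small peritoneal macrophages, dendritic cells, mast cells and B cells were lower with MCS there. The part of these cells in the level of *Mfge8* was not tested.

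*Gas6*, encoding the ligand shared by all TAM receptors, was near the limit of detection. It had 23 reads in control and 18 in MCS at ZT2, and 26 in control and 9 in MCS at ZT14, or 2.66, 2.09, 2.86 and 0.920 CPM. The libraries did not differ from their neighbours in level beyond counting error. MCS over control gave a log2 ratio of -1.53 in the ZT14 pair (interval -2.91 to -0.49) and -0.33 in the ZT2 pair (interval -1.32 to 0.61). Among 8631 genes of at least 10 CPM on average, those with a pattern over the 4 libraries most like that of *Gas6* were *Fcmr* (distance 0.32 on the log2 scale), *Scn4a* (0.32) and *Rab30* (0.41). *Fcmr* is one of the B cell markers, whose sum at ZT14 was 1563 CPM without and 1066 CPM with MCS, and at ZT2 1273 and 1222 CPM. Their part in the *Gas6* difference was not tested. For *Tyro3* the closest genes were *1700071M16Rik* (0.29), *Nfil3* (0.32) and *Vcan* (0.46). With 4 libraries and so few reads, these likenesses are descriptions.

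*Elmo1* encodes the ELMO scaffold of the exchange factor. Its level at ZT2 was 138 CPM without and 145 CPM with MCS, and at ZT14 it was 117 CPM without and 97.7 CPM with MCS. Both ZT2 libraries were above both ZT14 libraries and did not differ from each other beyond counting error. The log2 ratio of ZT2 to ZT14 was 0.23 in control (interval 0.11 to 0.35) and 0.57 in MCS (interval 0.45 to 0.70), and MCS over control at ZT14 gave -0.26 (interval -0.39 to -0.14). *Dock1* encodes its catalytic partner. In the ZT2 pair its level was 153 CPM without and 145 CPM with MCS, and at ZT14 it was 142 CPM without and 147 CPM with MCS. Its highest library was 1.08-fold above its lowest, and none of its neighbouring levels differed beyond counting error.

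**Figure D4:**
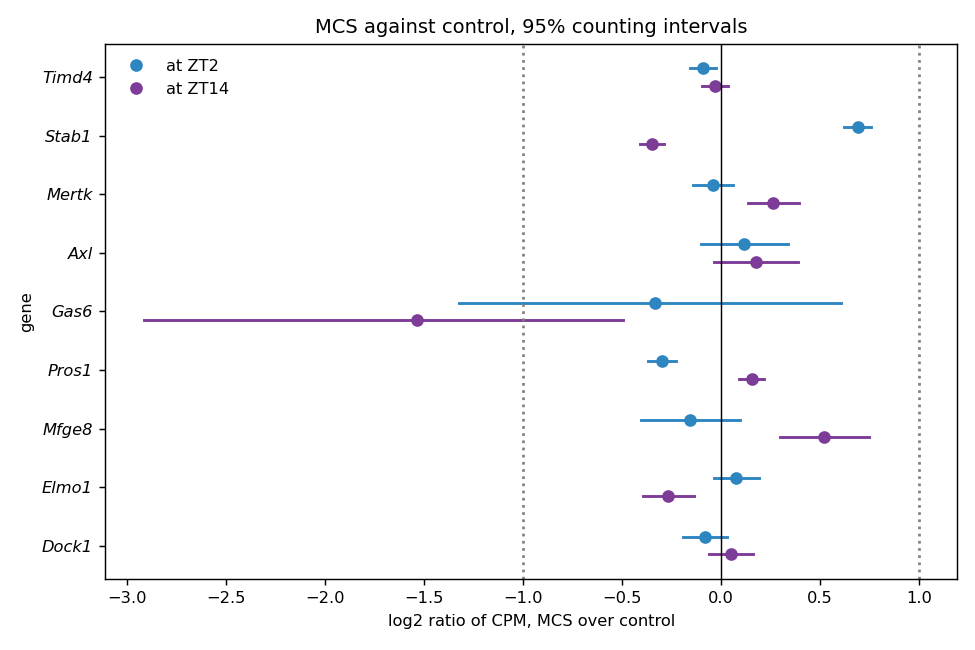
Log2 ratio of CPM in MCS over control (horizontal axis) for the 9 genes above the minimum expression, blue at ZT2 and purple at ZT14, with 95% counting intervals as lines and dotted lines at 1 and -1. *Stab1* lies at 0.69 at ZT2 and -0.35 at ZT14, *Pros1* lies the other way round, and *Gas6* is the only gene beyond -1, with the widest interval.

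The members were then counted in each comparison against all genes, using a log2 mean CPM above 0 as the minimum, which 9 members passed each time, and a log2 ratio beyond 1 as the fold. For MCS at ZT2, 0 of 9 members passed the fold, where 2.21% of all genes did (1.44% higher and 0.769% lower). Counting intervals excluded no change for 3 of 9 members against 22.5% of all genes, with 1 member higher against 11.5% and 2 lower against 11.0%. For MCS at ZT14, 1 of 9 members (*Gas6*, lower) passed the fold against 3.40% of all genes (1.84% higher and 1.57% lower). Intervals excluded no change for 6 of 9 against 37.6%, with 3 higher against 18.7% and 3 lower against 18.9%. Between ZT2 and ZT14 in control, 0 of 9 passed the fold against 3.61% (2.42% higher at ZT2 and 1.19% lower). Intervals excluded no change for 5 of 9 against 29.5%, with 4 higher against 13.6% and 1 lower against 15.9%. Between the time points in MCS, 1 of 9 (*Gas6*, higher at ZT2, with an interval from -0.05 to 2.52) passed the fold against 5.83% (3.96% higher and 1.87% lower). Intervals excluded no change for 5 of 9 against 44.0%, with 3 higher against 21.9% and 2 lower against 22.2%.

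Intervals narrow with depth, so the shares were also taken among genes of at least 30 CPM, which 8 members reached. There the intervals excluded no change for 3, 5, 5 and 5 of 8 members in the same order, beside 34.4%, 55.0%, 43.9% and 60.6% of all such genes. None of the 8 passed the fold, where 0.0947%, 0.448%, 1.09% and 1.36% of such genes did. With 8 genes, these counts lie near or above the shares of all genes of that level. The median absolute log2 ratio of the 10 members, *Tyro3* included, was 0.136 for MCS at ZT2, 0.265 for MCS at ZT14, 0.144 for time in control and 0.393 for time in MCS. Over all genes above the minimum it was 0.153, 0.213, 0.180 and 0.259, and over genes of at least 30 CPM 0.107, 0.169, 0.129 and 0.202. The member medians include *Tyro3*, below the minimum, and *Gas6*, below 30 CPM. The sets are therefore unlike, and no excess of the members can be read from these medians.

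**Figure D5:**
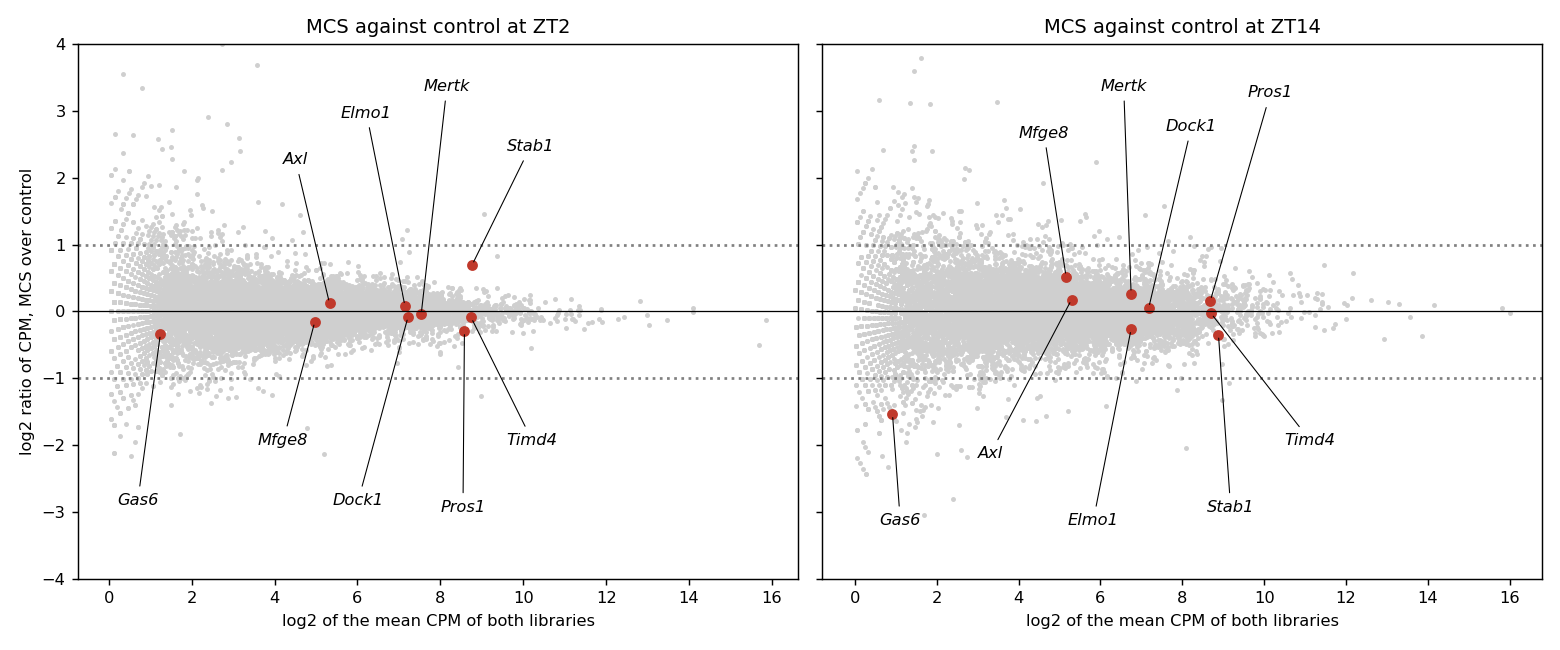
Log2 ratio of MCS over control (vertical axis, limited to 4 in each direction, which leaves 8 genes out at ZT2 and 16 at ZT14) against the log2 mean CPM of both libraries (horizontal axis) for 12612 genes at ZT2 (left) and 12368 at ZT14 (right), with members in red. At ZT2 *Stab1* (0.69) lies outside the band of genes of like expression, and at ZT14 *Gas6* (-1.53) lies in the wide scatter of genes with few reads.

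Whether the ratio of MCS to control differed between the 2 time points was described by subtracting the ratio at ZT2 from that at ZT14, which share no library. The interval of this difference excluded 0 for 5 members, *Stab1*, *Pros1*, *Mfge8*, *Elmo1* and *Mertk*, against 36.6% of all genes. These 5 members all had means of at least 30 CPM, where intervals are narrower. The share among genes of that level was not taken, so no excess can be read from this count. It was -1.04 for *Stab1* (interval -1.13 to -0.95), exceeded in absolute size by 1.52% of 5332 genes of at least 30 CPM. It was 0.67 for *Mfge8* (interval 0.34 to 1.003), 0.45 for *Pros1* (interval 0.36 to 0.55) and 0.30 for *Mertk* (interval 0.14 to 0.47). For *Elmo1* it was -0.34 (interval -0.51 to -0.17). Of the same 5332 genes, 7.09% had a larger absolute difference than *Mfge8* and 20.5% a larger one than *Pros1*. For *Elmo1* this share was 33.1% and for *Mertk* 39.0%. Members with an interval including 0 were *Timd4*, *Axl*, *Dock1*, *Gas6* and *Tyro3*. For *Timd4*, the interval from -0.03 to 0.15 left room for only small differences in counting terms.

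Other genes of the same steps were taken from lists made by name, also with earlier results of these data known. Of 21 further recognition receptors listed, the most abundant by mean CPM were the engulfment receptor *Lrp1* (3496 to 4315 CPM), *Cd93* (511 to 766 CPM) and the scavenger receptor *Msr1* (390 to 578 CPM). None passed the fold with MCS at either time. Counting intervals for MCS excluded no change in 2 higher and 4 lower of 17 receptors over the minimum at ZT2, and in 8 higher and 2 lower of 16 at ZT14. The shares of all genes were 11.5% higher and 11.0% lower at ZT2, and 18.7% higher and 18.9% lower at ZT14. Between the time points, intervals lay above 0 for 8 and below 0 for 3 of 17 in control, where the shares of all genes were 13.6% and 15.9%, and for 7 and 7 of 17 in MCS, where they were 21.9% and 22.2%. The same shares apply to the bridging and engulfment lists that follow. Of all genes, 2.21% passed the fold for MCS at ZT2 and 3.40% for MCS at ZT14. Between the time points 3.61% did in control and 5.83% in MCS. Intervals narrow with depth, so these shares are low for lists of well-expressed genes. Among genes of at least 30 CPM, intervals for MCS excluded no change in 34.4% at ZT2 and 55.0% at ZT14. Between the time points they did so in 43.9% of such genes in control and 60.6% in MCS. In the same order, 0.0947%, 0.448%, 1.09% and 1.36% of the genes of at least 30 CPM passed the fold. *Havcr2*, which encodes the phosphatidylserine receptor TIM-3, was higher at ZT2 than at ZT14, with 2.31 against 0.879 CPM in control (log2 interval 0.15 to 2.79) and 3.36 against 0.716 CPM in MCS (log2 interval 1.01 to 3.67). *Itgb5* passed the fold in MCS with 1.04 (interval 0.13 to 2.09). Of 15 other bridging and signal molecules, *C1qa* had 1043 to 1164 CPM, *Calr* 862 to 1099 CPM and *C1qc* 940 to 996 CPM, and *Thbs1*, a bridge to CD36, was the only one past the fold in any comparison. At ZT2 the level of *Thbs1* was 1376 CPM without and 938 CPM with MCS, and at ZT14 it was 73.8 CPM without and 200 CPM with MCS. Among the 14 over the minimum, intervals for MCS excluded no change in 3 higher and 3 lower at ZT2 and in 5 higher and 5 lower at ZT14, and between the time points in 7 higher and 3 lower in control and 6 higher and 1 lower in MCS. Of 25 other engulfment genes, none passed the fold in any comparison. Their intervals for MCS excluded no change in 4 higher and 3 lower at ZT2 and in 7 higher and 7 lower at ZT14, and between the time points in 8 higher and 7 lower in control and 9 higher and 6 lower in MCS. The most abundant of these were *Dock2*, the DOCK family member of blood cells (983 to 1133 CPM), *Syk* (775 to 972 CPM) and *Dock8* (773 to 792 CPM).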

How the data were processed

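RNA of sorted peritoneal macrophages was sequenced in 4 libraries, 1 for each of control and MCS at each time. The authors trimmed reads with Trimmomatic 0.38, estimated counts per gene with RSEM 1.3.0 and Bowtie 2 on mm10 and deposited CPM normalized by edgeR. The annotation, the expression filter and the strand setting are not given in the sources used here. All deposited CPM (100% of values) were whole multiples of 1 read within 0.05 read, and TMM factors from these reads gave the deposited scaling again. RSEM estimates need not be whole, so rounding by the authors is included.

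Log2 ratios were taken after adding 0.1 CPM, with exact conditional binomial (Clopper-Pearson) intervals at 95% on the reads, and exact Poisson intervals for levels. Both cover counting error only. Differences of ratios have normal intervals from the same error. The fold (log2 ratio beyond 1) and the minimum (log2 mean above 0) follow the study's methods. The count test was edgeR's quasi-likelihood test on genes of at least 40 reads, with Benjamini-Hochberg adjustment and DESeq2 as alternative. Its p-values rest on the departure of these libraries from additive terms, which includes any MCS effect that differs by time. They measure no spread between replicate libraries. The ratios and the count test were tested on simulated data.

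All members are named in every comparison. Of the other lists, genes past the fold and the 3 most abundant are named, except where stated. Genes of like pattern are the 3 closest in log2(CPM + 0.1) centred over the 4 libraries, for members ranging over more than 1 on that scale. The members and lists were chosen with earlier results of these data known. Of the marker lists not given with a result, red blood cell markers summed to 3.23 CPM without and 36.7 CPM with MCS at ZT2 and to 1.32 and 112 CPM at ZT14, eosinophil markers to 57.6 and 67.1 CPM and 50.9 and 81.9 CPM, and platelet markers to 242 and 204 CPM and 187 and 201 CPM. Lengths are medians of coding transcripts in GENCODE M21 and promoters are from RefSeq. Python 3.11.15, scipy 1.17.1, R 4.3.3, edgeR 4.0.16, DESeq2 1.42.0 and blastn 2.17.0 were used.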

Additional observations from a re-analysis of the deposited data

Results flagged for a closer look

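*Stab1* drew attention because its single MCS libraries lay on opposite sides of their controls at the 2 time points. Its log2 ratio of MCS to control at ZT14 minus that at ZT2 was -1.04. The same 4 values, read as the ratio of ZT2 to ZT14 in MCS minus that in control, gave 1.04, with control lower and MCS higher at ZT2. *Pros1* showed the reverse pattern, with 0.45 for MCS against control and -0.45 for ZT2 against ZT14. Both differences are larger than counting error, but with 1 library per condition they were not tested against the spread between mice. Among genes of at least 30 CPM, 1.52% had a larger absolute difference than *Stab1* and 20.5% a larger one than *Pros1*.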

How the results depend on the processing

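No paired analysis was possible because each condition has 1 library, and no library could be left out. Over 160 recomputed log2 ratios of single members, with pseudocounts of 1 and 0.01 CPM, libraries rescaled to a median ratio of 1 and TMM factors, 0 changed sign. The ratios of the 8 members other than *Gas6* and *Tyro3* moved by at most 0.013. Counts of members past the fold moved at small numbers. With a log2 ratio beyond 0.5 in place of 1, they were 1 for MCS at ZT2, 2 for MCS at ZT14, 2 for ZT2 against ZT14 in control and 4 for the MCS pair. Without the minimum expression they were 2 for MCS at ZT14 and 1 for ZT2 against ZT14 in control, since *Tyro3* entered. With a pseudocount of 1 CPM, 0 passed for ZT2 against ZT14 in MCS. Counts of members with an interval excluding no change stayed within 1 of the values given under 99% intervals, no minimum, both rescalings and the minimum of 30 CPM, which was chosen after seeing the data. The count of 5 members with a difference between time points was unchanged under both rescalings and both pseudocounts, also added later. The additive count test called 24 genes for MCS and 295 for time. Without the minimum of 40 reads it called 43 for MCS and 380 for time, and DESeq2 called 5 for MCS and 81 for time. Depth limits *Gas6* and *Tyro3*, with at most 26 and 8 reads in a library.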

Other observations

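Find-me receptors bind signals that draw macrophages to dying cells. Of 9 such receptors above the minimum, *P2ry2* and *P2ry6*, both receptors for extracellular nucleotides, were past the fold in control, and both were lower at ZT2, as were 1.19% of all genes. At ZT2 the level of *P2ry2* was 33.5 CPM without and 32.3 CPM with MCS, and at ZT14 it was 85.6 CPM without and 82.1 CPM with MCS. Its log2 ratio of ZT2 to ZT14 was -1.35 in control (interval -1.55 to -1.16) and -1.35 in MCS (interval -1.55 to -1.15). *P2ry6* was lower at ZT2 in control, with 6.35 against 14.3 CPM, whereas in MCS it had 10.1 and 7.57 CPM. *P2ry12* passed the fold in MCS, with 7.19 CPM at ZT2 and 3.37 CPM at ZT14, where 3.96% of all genes were higher at ZT2 by that fold. The more abundant *S1pr1* (227 to 308 CPM) and *Adora2a* (20.3 to 27.8 CPM) stayed below the fold.

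Of 14 genes of nuclear receptors and lipid efflux, 4 passed the fold for time in control, all lower at ZT2 (*Nr1h3*, *Nr4a1*, *Abcg1* and *Mylip*), where 1.19% of all genes were lower by that fold. *Abcg1* encodes a cholesterol exporter and is a target of the liver X receptors. At ZT2 its level was 104 CPM without and 97.0 CPM with MCS, and at ZT14 it was 278 CPM without and 199 CPM with MCS. Its log2 ratio of ZT2 to ZT14 was -1.41 in control (interval -1.52 to -1.30) and -1.04 in MCS (interval -1.16 to -0.92). *Mylip*, another such target, was 45.0 CPM at ZT2 against 105 CPM at ZT14 in control and 46.2 against 71.3 CPM in MCS, and *Nr1h3*, which encodes liver X receptor alpha, had 2.43 and 5.27 CPM in control and 3.25 and 4.60 CPM in MCS. In control, *Nr4a1* was 7.39 CPM at ZT2 against 23.0 CPM at ZT14, and in MCS 9.74 against 12.9 CPM. None of these 3 passed the fold in MCS. *Mertk*, itself a known target of these receptors, had the opposite order of levels, as given above. With MCS at ZT2, *Ppara* (0.464 against 1.62 CPM) and *Pparg* (0.696 against 1.73 CPM) were past the fold at very few reads, and *Ppara* was also past it for ZT2 against ZT14 in MCS. The shares of all genes lower by that fold were 0.769% and 1.87% in these comparisons. The most abundant genes of this list were *Apoe* (6722 to 8952 CPM), *Ucp2* (876 to 1023 CPM) and *Abca1* (360 to 582 CPM). Of 20 genes of LC3-associated phagocytosis and corpse digestion, *Ctsl*, a lysosomal protease, was the only one past the fold in any comparison, at 276 CPM at ZT2 and 135 CPM at ZT14 in control. In control, 2.42% of all genes were higher at ZT2 by that fold. The MCS values of *Ctsl* were 253 and 225 CPM (log2 interval 0.08 to 0.25). The most abundant of this list were *Ctsd* (2378 to 2672 CPM), *Cybb* (1516 to 2012 CPM) and *Lamp1* (796 to 859 CPM).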
